A study of Homo sapiens with 6 samples.

Results

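The alpha and beta tubulin isotypes are the 10 genes *TUBA1A*, *TUBA1B*, *TUBA1C*, *TUBA4A*, *TUBB*, *TUBB2A*, *TUBB2B*, *TUBB3*, *TUBB4B* and *TUBB6*, taken by name from the 16279 genes in the deposited tables. All 10 were listed in both tables, and all 10 were among the 13311 genes that passed the filter on low counts. The RNA came from 12Z, an immortalised epithelial line derived from human endometriotic tissue, and both groups were cultures of this single line. The Control group (n = 3) was untreated, and the rhChem157S group (n = 3) received the active recombinant human form of the adipokine chemerin at 10 ng/mL for 48 h. The labels call the libraries of each group biological replicates without saying whether they were separate cultures, so p-values measure the spread between these libraries.

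Alpha and beta tubulin form the heterodimer from which microtubules are built, and human cells carry several genes for each subunit. The encoded isotypes differ mainly in their acidic C-terminal tails, which project from the microtubule surface, are modified by dedicated enzymes and are read by motors and microtubule-associated proteins. Nascent tubulin is folded by prefoldin, the chaperonin CCT and the tubulin-binding cofactors. Tubulin mRNA levels are also set by autoregulation, in which TTC5 recognises the first residues of a nascent tubulin chain and recruits the deadenylase complex CCR4-NOT when free dimer is abundant. In an epithelium, microtubules carry vesicle traffic and build the spindle at division.

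The 4 alpha genes lie on GRCh38 at chr12:49184796-49189324 (minus strand), chr12:49127782-49131397 (minus), chr12:49188736-49274603 (plus) and chr2:219249711-219278170 (minus), in the order listed. The 6 beta genes lie at chr6:30720201-30725426 (plus strand), chr6:3153669-3157526 (minus), chr6:3224261-3231730 (minus), chr16:89921392-89938761 (plus), chr9:137241213-137243707 (plus) and chr18:12307669-12344320 (plus). The C-terminal coding ends of the beta genes are shown because they are where the isotypes differ most. Each is the last 63 coding bases, stop codon included, of the gene's main transcript in GENCODE release 29, on the sense strand, with the codons for glutamate in capitals.
TUBB: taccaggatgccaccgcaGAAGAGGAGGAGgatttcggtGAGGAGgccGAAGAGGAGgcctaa
TUBB2A: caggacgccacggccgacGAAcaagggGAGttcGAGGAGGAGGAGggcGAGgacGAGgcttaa
TUBB2B: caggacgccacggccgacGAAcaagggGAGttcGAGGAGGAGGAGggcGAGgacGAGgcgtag
TUBB3: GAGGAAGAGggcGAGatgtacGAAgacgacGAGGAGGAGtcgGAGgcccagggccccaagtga
TUBB4B: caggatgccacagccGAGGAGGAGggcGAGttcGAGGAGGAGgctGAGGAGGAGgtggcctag
TUBB6: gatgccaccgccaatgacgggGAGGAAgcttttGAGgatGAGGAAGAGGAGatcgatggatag
The ends of *TUBB2A* and *TUBB2B* differed at 2 of the 63 bases, in the last sense codon, for alanine in both, and in the stop codon. The residues they encode were thus the same. The beginning of the chain was shared more widely. Codons 2 to 4, in capitals in atgCGTGAGTGC for *TUBA1B* and atgAGGGAAATC for *TUBB*, coded arginine, glutamate and cysteine in all 4 alpha genes and arginine, glutamate and isoleucine in all 6 beta genes, which is the signal that TTC5 reads.

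Over their coding sequences *TUBA1A*, *TUBA1B* and *TUBA1C* were 95.9% to 97.2% identical, and *TUBB2A* and *TUBB2B* were 98.1% identical. The lowest identity within a family was 80.9%, and alpha against beta genes lay between 53.4% and 55.8%. Counts of near-identical genes can be split or lost by a read counter, so the share of each main transcript's windows of 100 bases that also occur in a transcript of another gene was counted. It was 0% for *TUBB6*, 4.49% for *TUBB4B* and 20.4% for *TUBB*. It was 26.6% for *TUBA1A*, 29.6% for *TUBA1C* and 27.4% for *TUBA4A*, whose exons overlap those of STK16 on the opposite strand. *TUBB2A* stood at 56.4% and *TUBB2B* at 46.2%, nearly all of it shared between the pair. *TUBA1B* stood at 71.1%, most of it with the opposite-strand GENCODE gene AC011603.2. *TUBB3* stood at 89.0%, with AC092143.1, a GENCODE gene on the same strand that covers most of its main transcript. The strand setting of the read counting, which bears on opposite-strand overlaps, is not given in the sources used here. Sequence shared between genes and the same-strand overlap of *TUBB3* can affect counts whatever that setting. The counts of these genes therefore carry an uncertainty that the replicate error does not show.

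Reads counted on genes numbered from 35430881 to 38341643 per library. On the scale of log2 CPM, the count scaled to the library's size, Pearson correlations over genes (not independent replicates) ran from 0.983 to 0.990 within the Control group and from 0.960 to 0.985 within the rhChem157S group. TMM scaling factors were 1.04 to 1.05 in the Control group and 1.00, 0.973 and 0.898 in rhChem157S replicates 1 to 3, so replicate 3 stood farthest from the other 5 on this measure. The log2 fold change of each member is therefore also given without that library. FPKM, the unit in which levels of different genes are compared here, was not rescaled by these factors. Of the epithelial markers, the keratins *KRT8*, *KRT18* and *KRT19* were abundant, whereas *EPCAM* and *CDH1* had mean levels under 1 FPKM in both groups. Log2 fold changes were 0.29 for *KRT8* and 0.27 for *KRT19*, both higher in every treated library in log2 CPM though not in FPKM, and -1.46 for *EPCAM* and -1.14 for *CDH1*, both lower in every one. *MUC1* had a log2 fold change of -0.57 with overlapping groups (DESeq2 adjusted p = 0.0404). Collagen and other fibroblast or stromal markers were expressed in both groups, with summed levels of 1703 to 2198 FPKM in the Control group and 1170 to 2312 FPKM in the rhChem157S group. *PTPRC* was near 0 FPKM, while 2 of the 6 leukocyte markers were expressed, with summed levels of 122 to 171 and 92.7 to 136 FPKM. *CD14* measured 43.2 ± 7.51 FPKM in Control and 14.3 ± 7.32 FPKM in treated cells and was lower in every treated library (DESeq2 adjusted p = 4.32e-04), and *CD68* measured 97.0 ± 33.5 and 95.6 ± 21.9 FPKM with overlapping groups. The part of these markers in the tubulin values was not tested.

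The tubulin transcripts were abundant, and most were higher in rhChem157S-treated cells. Of the 10 members 8 had a positive and 2 a negative log2 fold change, with a median of 0.47, against 0.01 over all 13311 genes, of which 51.7% were positive. At an adjusted p under 0.05 (edgeR quasi-likelihood test, Benjamini-Hochberg over 13311 genes), 0 of the 10 members were called, against 0.0301% of all genes tested. At an unadjusted p under 0.05, 7 members were higher, against 11.4% of all genes, and 2 were lower, against 11.4%. With DESeq2, 6 members were higher at an adjusted p under 0.05, against 3.75% of 14382 genes, and 2 were lower, against 5.3%. The groups did not overlap in log2 CPM for 6 members higher in every rhChem157S library, against 16.5% of genes, and for 2 members lower in every one, against 16%. Highly expressed genes as a class were also shifted upward. For the 542 genes with a mean above 100 FPKM the median was 0.25, and 84.1% of them were positive. At an edgeR unadjusted p under 0.05, 258 of the 542 were higher and 21 lower. With DESeq2, 141 were higher and 11 lower at an adjusted p under 0.05. The groups did not overlap for 299 of the 542 that were higher and for 27 that were lower. Calls upward were thus far more frequent at this level than over all genes. Among the 10 tubulin genes 6 lay above that level.

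**Figure D1:**
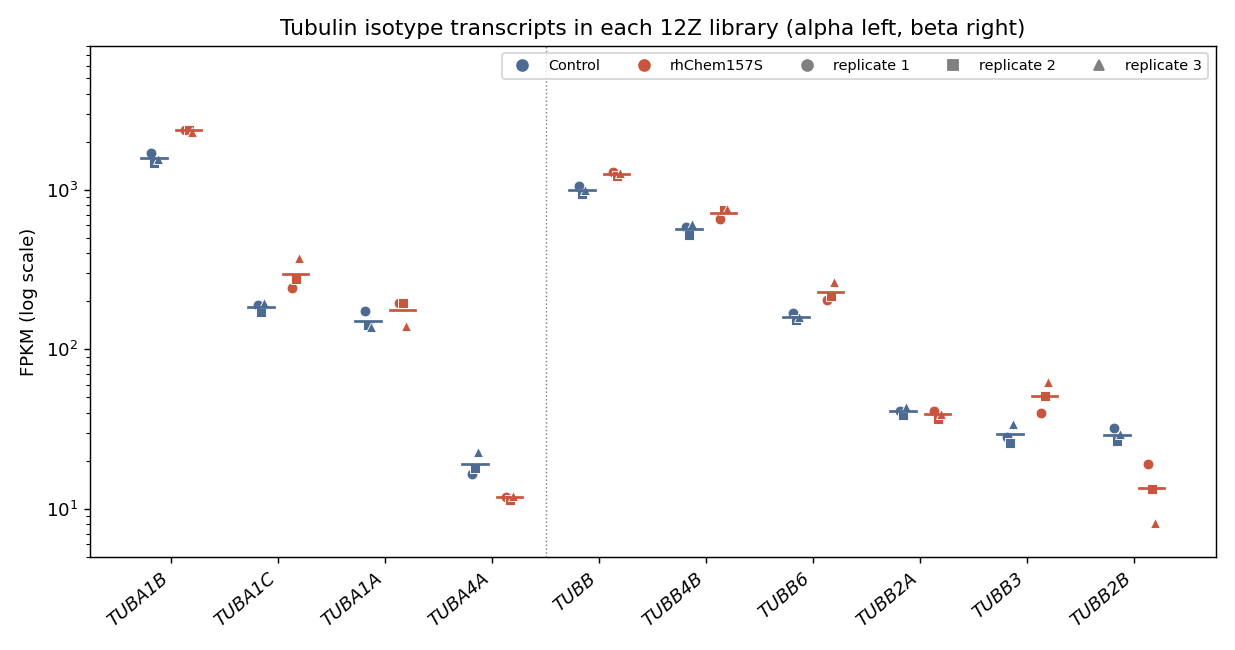
FPKM (vertical, log scale) of the 10 tubulin isotype genes in each of the 6 libraries; blue points are Control, red points rhChem157S, the point's shape gives the replicate number and horizontal lines are group means. *TUBA1B* and *TUBB* stand highest at mean Control levels of 1585 and 998 FPKM, and only *TUBA1A* and *TUBB2A* have overlapping groups.

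Among the alpha genes, *TUBA1B*, a ubiquitous isotype, was by far the most abundant. Its level was 1708, 1473 and 1574 FPKM in the Control libraries and 2377, 2383 and 2322 FPKM in the rhChem157S libraries. Every treated library lay above every Control library, and the treated libraries were the closer together. In bulk RNA, more cells with a transcript and more transcript per cell cannot be told apart. The group means were 1585 ± 118 and 2361 ± 33.4 FPKM (SD, n = 3 each), and the log2 fold change was 0.70 (SE 0.12; edgeR adjusted p = 0.0707; DESeq2 adjusted p = 4.07e-08), and 0.67 without rhChem157S replicate 3.

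*TUBA1C*, a further broadly expressed alpha isotype, measured 189, 172 and 195 FPKM in Control cells and 242, 277 and 376 FPKM in rhChem157S-treated cells. The groups did not overlap, and rhChem157S replicate 3 was the highest library. The log2 fold change was 0.83 (SE 0.20; edgeR adjusted p = 0.103; DESeq2 adjusted p = 0.00237), and 0.57 without rhChem157S replicate 3.

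*TUBA1A*, the main alpha isotype of developing neurons, measured 175, 142 and 138 FPKM in Control cells and 196, 195 and 140 FPKM in treated cells. The groups overlapped, since rhChem157S replicate 3 lay below Control replicates 1 and 2. The log2 fold change of 0.34 (SE 0.14; edgeR adjusted p = 0.207; DESeq2 adjusted p = 0.163) became 0.45 without that library.

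*TUBA4A*, an alpha isotype known from platelets, brain and muscle, was on the other side. It measured 16.7, 17.9 and 22.6 FPKM in Control cells and 11.9, 11.4 and 12.1 FPKM in treated cells. Every treated library lay below every Control library. This gave a log2 fold change of -0.56 (SE 0.13; edgeR adjusted p = 0.103; DESeq2 adjusted p = 0.0116), and -0.63 without rhChem157S replicate 3.

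Among the beta genes, *TUBB*, the beta isotype of most cultured cells, was the most abundant. It measured 1055, 938 and 1000.1 FPKM in Control cells and 1296, 1227 and 1279 FPKM in rhChem157S-treated cells. The groups did not overlap. Its log2 fold change was 0.48 (SE 0.12; edgeR adjusted p = 0.104; DESeq2 adjusted p = 6.79e-04), and 0.42 without rhChem157S replicate 3.

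*TUBB4B*, a widely expressed isotype that is also a main beta tubulin of cilia, came next in level. Its values were 583, 525 and 609 FPKM in Control cells and 658, 748 and 757 FPKM in treated cells, and each treated library was above all Control libraries. The log2 fold change was 0.47 (SE 0.12; edgeR adjusted p = 0.116; DESeq2 adjusted p = 0.0136), and 0.38 without rhChem157S replicate 3.

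*TUBB6*, a broadly expressed and more divergent isotype, measured 169, 153 and 160.3 FPKM in Control cells and 205, 217 and 264 FPKM in treated cells. The groups did not overlap, and rhChem157S replicate 3 was again the highest. In edgeR the log2 fold change was 0.65 (SE 0.15; edgeR adjusted p = 0.0939; DESeq2 adjusted p = 0.00227), and 0.48 without rhChem157S replicate 3.

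*TUBB3*, which is enriched in neurons and is also found in many tumour-derived lines, had the largest positive log2 fold change of the 10 genes. It measured 28.3, 26.1 and 33.9 FPKM in Control cells and 40.2, 51.3 and 62.6 FPKM in treated cells. All treated libraries were above all Control libraries, with rhChem157S replicate 3 at the top. Its log2 fold change was 0.95 (SE 0.20; edgeR adjusted p = 0.0880; DESeq2 adjusted p = 8.19e-04), and 0.72 without that library. Most other neuronal genes did not share this direction. Of 8 neuronal markers 6 were under 1 FPKM in every library. The summed level of the 8 was 8.51, 10.4 and 11.3 FPKM in Control cells and 5.20, 6.03 and 6.84 FPKM in treated cells. *SNAP25* was the largest part of the sum, at 6.74 ± 0.424 FPKM in Control and 3.46 ± 0.479 FPKM in treated cells. Of the 6 tested, 5 had a negative log2 fold change, and that of *NEFL* was 0.07 with overlapping groups.

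*TUBB2B*, an isotype of the developing brain, had the largest negative log2 fold change. It measured 31.9, 26.5 and 29.3 FPKM in Control cells and 19.0, 13.3 and 8.14 FPKM in treated cells. The groups did not overlap, and rhChem157S replicate 3 was the lowest library. This gave a log2 fold change of -1.004 (SE 0.25; edgeR adjusted p = 0.105; DESeq2 adjusted p = 0.00307), and -0.77 without rhChem157S replicate 3.

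*TUBB2A*, a near neighbour of *TUBB2B* on chromosome 6, measured 41.2, 38.8 and 43.8 FPKM in Control cells and 41.1, 36.8 and 39.6 FPKM in treated cells. The groups overlapped. The fitted log2 fold change was 0.06 (SE 0.09; edgeR adjusted p = 0.745; DESeq2 adjusted p = 0.824), and its sign changed with the scaling, to -0.076 with library size only, and without rhChem157S replicate 3, to -0.0028.

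**Figure D2:**
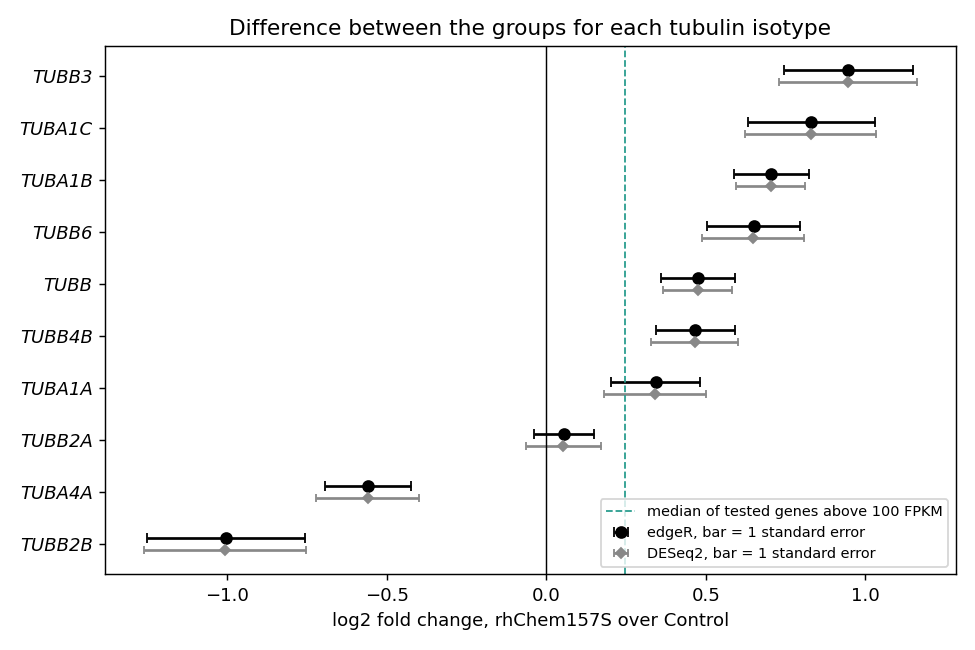
Log2 fold change (horizontal, rhChem157S over Control) of each tubulin isotype gene with edgeR (black circles) and DESeq2 (grey diamonds), bars being 1 standard error and the dashed line the median of the 542 tested genes above 100 FPKM. *TUBB3* lies at 0.95 and *TUBB2B* at -1.004, the ends of the range.

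The edgeR calls depended on single treated libraries. Without rhChem157S replicate 3, 5 members passed an adjusted p of 0.05 in edgeR (*TUBA1B*, *TUBA1C*, *TUBB2B*, *TUBB3* and *TUBB6*), and 3.07% of all genes tested did. Without rhChem157S replicate 1, 6 members passed (the same 5 and *TUBB4B*), and 6.24% of all genes did. Calls thus became more frequent over the whole table when either library was left out. With DESeq2, between 4 and 9 members passed when each library was left out in turn, against 2.03% to 18.3% of all genes. *TUBA1B*, *TUBB* and *TUBB3* were among them each time. The log2 fold changes of *TUBB2B* in edgeR were -1.30 without rhChem157S replicate 1 and -0.77 without rhChem157S replicate 3.

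The near-identical pair *TUBB2A* and *TUBB2B* was also compared within libraries. In each library the *TUBB2B* level was divided by that of *TUBB2A*, which removes the library's scaling. The ratio was 0.775, 0.683 and 0.670 in Control cells and 0.464, 0.363 and 0.206 in rhChem157S-treated cells. The groups did not overlap (two-sided exact permutation p = 0.10, the minimum for 3 against 3 libraries). Other isotype ratios were tested in the same way, with no adjustment over the ratios. *TUBA1A* over *TUBA1B* and *TUBA4A* over *TUBA1B* were also lower in every treated library (exact permutation p = 0.10 each). *TUBA1C* over *TUBA1B*, and *TUBB3*, *TUBB4B* and *TUBB6* over *TUBB*, overlapped between the groups. Because *TUBB2A* and *TUBB2B* share much of their sequence, a read assigned to the wrong gene would move both values.

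Upstream of their start sites the pair looked different. The 250 bases before the RefSeq start are shown for *TUBB2A* (GRCh38.p14, chr6:3157545-3157794, minus strand) and *TUBB2B* (chr6:3227654-3227903, minus strand), with matches on either strand in capitals to the CCAAT box, to the GC box (searched as GGGCGG) and to the core of the TATA box (searched as TATAA).
TUBB2A: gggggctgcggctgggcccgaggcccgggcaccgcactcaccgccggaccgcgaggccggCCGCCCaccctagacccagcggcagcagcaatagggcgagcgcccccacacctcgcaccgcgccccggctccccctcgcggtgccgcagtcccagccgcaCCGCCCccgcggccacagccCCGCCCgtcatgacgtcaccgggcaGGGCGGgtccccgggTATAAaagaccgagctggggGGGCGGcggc
TUBB2B: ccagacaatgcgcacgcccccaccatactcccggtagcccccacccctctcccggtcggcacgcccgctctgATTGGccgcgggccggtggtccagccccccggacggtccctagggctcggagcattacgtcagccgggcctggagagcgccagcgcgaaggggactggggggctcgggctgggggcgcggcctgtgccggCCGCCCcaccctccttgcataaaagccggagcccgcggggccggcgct
The *TUBB2A* window held GGGCGG 5 times, TATAA once at position -30 and no CCAAT. The *TUBB2B* window held CCAAT once, as ATTGG at position -178, GGGCGG once and no TATAA. The search took exact letters only, and near its end the *TUBB2B* window held cataaaag, close in letters to the TATAAaag of *TUBB2A*. Over the 10 members, 7 windows held CCAAT, 8 held GGGCGG and 5 held TATAA, against 32.0%, 42.6% and 18.9% of 35116 RefSeq windows of the same length. Matches of the same motif may overlap, as 2 of the GGGCGG matches in *TUBA1B* did. *TUBA4A*, the other member that was lower in every treated library, held GGGCGG 4 times, TATAA once and no CCAAT. These matches describe the letters of the windows and no binding was measured.

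The make-up of each family was then taken as the share of each gene in its family's summed FPKM. *TUBA1B* made up 81.7% ± 0.106 of alpha transcripts in Control cells and 82.9% ± 1.32 in treated cells (SD, n = 3 each). *TUBB* made up 54.5% ± 1.05 and 54.6% ± 2.37 of beta transcripts, and *TUBB4B* 31.3% ± 1.03 and 31.0% ± 1.78. The shares of these main isotypes overlapped between the groups. Their size depends on the length by which FPKM divides each gene's count. As shares of counts, the Control and treated means were 72.0% and 73.2% for *TUBA1B* and 17.1% and 18.7% for *TUBA1C*. They were 62.5% and 62.3% for *TUBB* and 21.1% and 20.9% for *TUBB4B*.

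*TUBA1A* stood at 8.38%, 7.85% and 7.16% in Control and 6.92%, 6.79% and 4.91% in treated cells. *TUBA4A* stood at 0.798%, 0.993% and 1.17% in Control and 0.423%, 0.397% and 0.425% in treated cells. Both were lower in every treated library.

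*TUBB2A* stood at 2.16%, 2.27% and 2.33% in Control and 1.82%, 1.60% and 1.64% in treated cells. *TUBB2B* stood at 1.67%, 1.55% and 1.56% in Control and 0.843%, 0.582% and 0.338% in treated cells. These beta isotypes were again lower in every treated library, although the level of *TUBB2A* itself overlapped between the groups.

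Of the 10 genes, *TUBB6* was the only one with a higher share in every treated library, at 9.08%, 9.48% and 11.0% against 8.83%, 8.95% and 8.54% in Control. Without rhChem157S replicate 3 its difference was 0.506 points in place of 1.06, and that of *TUBA1A* -0.939 points in place of -1.59. For *TUBA1A*, *TUBA4A*, *TUBB2A*, *TUBB2B* and *TUBB6* the exact two-sided permutation test gave p = 0.10, the smallest possible, and an adjusted p of 0.20 over the 10 shares. The share of *TUBB3* was 1.60% ± 0.174 in Control and 2.20% ± 0.409 in treated cells, with overlapping groups (exact permutation p = 0.20). That of *TUBA1C* was 9.55% ± 0.523 and 10.5% ± 2.41 (exact permutation p = 0.80), and its difference of 0.912 points became -0.445 points without rhChem157S replicate 3. A share shows unequal change within a family and not which gene changed.

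**Figure D3:**
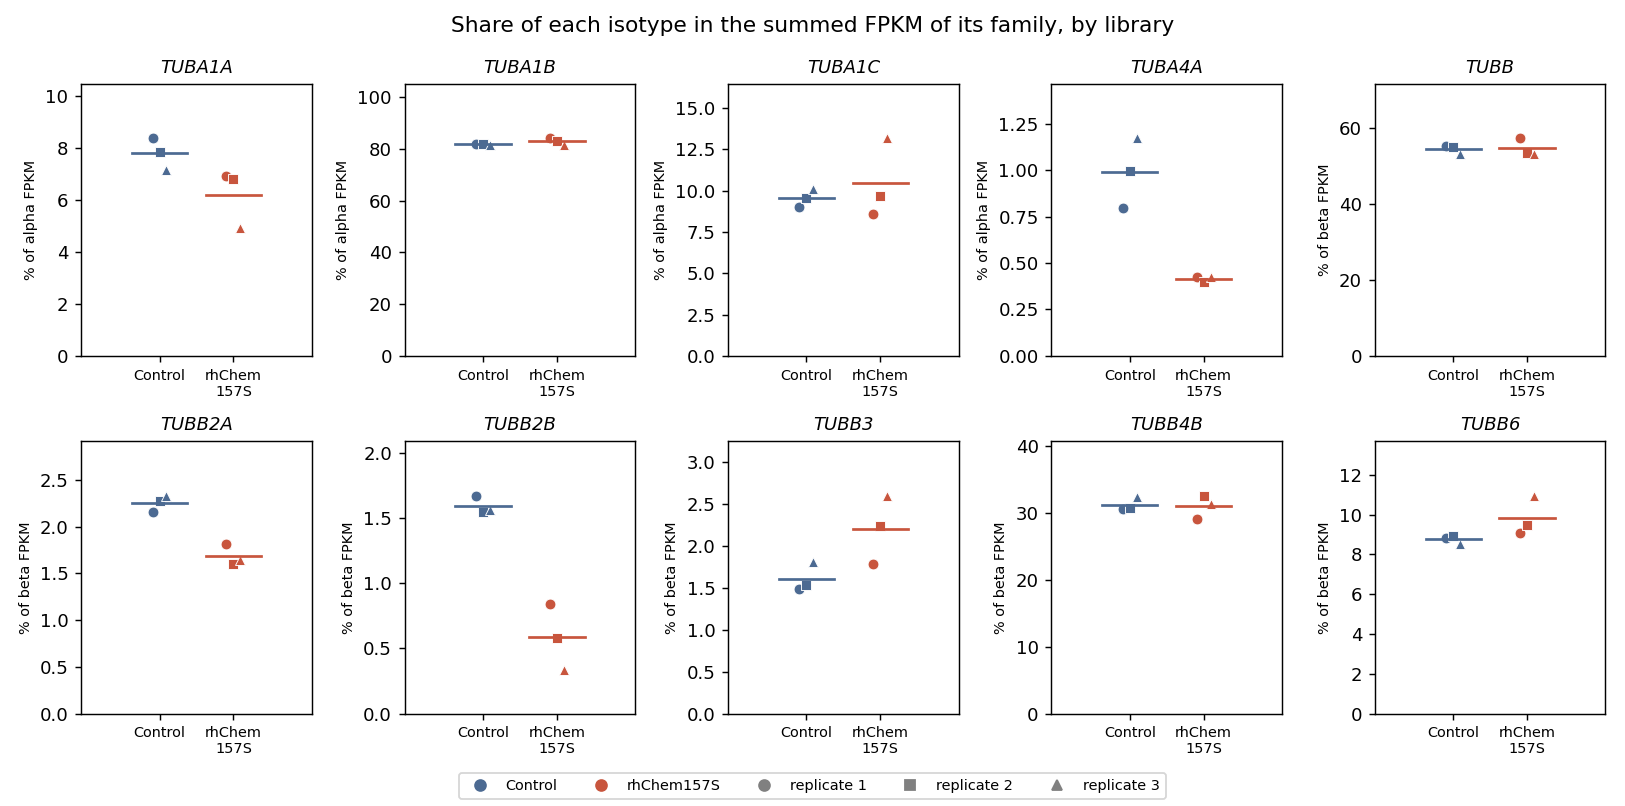
Share (vertical, percent, from 0) of each isotype gene in the summed FPKM of its family, in each library; blue is Control, red is rhChem157S, the shape gives the replicate number and lines are group means. The mean of *TUBA4A* is 0.988% in Control and 0.415% in treated cells and that of *TUBB2B* 1.60% and 0.587%, while *TUBA1B* lies between 81.5% and 84.1% in all 6 libraries.

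Summed over the families, the alpha genes measured 2089, 1804 and 1930 FPKM in Control cells and 2826, 2866 and 2850 FPKM in treated cells. The beta genes measured 1908, 1707 and 1876 FPKM in Control and 2260, 2293 and 2410 FPKM in treated cells. Both sums were higher in every treated library, by 1.47 times for alpha and 1.27 times for beta on the ratio of means. Alpha over beta was 1.06 ± 0.0331 in Control and 1.23 ± 0.0390 in treated cells (SD, n = 3 each), again without overlap. The 10 genes took 0.729% to 0.827% of all counts in the Control libraries and 1.04% to 1.10% in the treated libraries. Sums over members chosen with earlier results known carry no test here.

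Of 13 listed tubulin genes outside the 10, 10 were in the tables and 6 were tested. All 6 had negative log2 fold changes, with a median of -0.22, but 0 passed edgeR's adjusted threshold. At an unadjusted p under 0.05, 2 were lower, against 11.4% of all genes. *TUBG2*, a gamma tubulin, had a mean of 32.8 ± 0.789 FPKM in Control and 24.5 ± 2.14 FPKM in treated cells, with a log2 fold change of -0.30 (SE 0.08; edgeR adjusted p = 0.119; DESeq2 adjusted p = 0.0355). *TUBB4A*, a beta isotype of oligodendrocytes and neurons, was present at only 1.29 ± 0.189 FPKM in Control and 0.398 ± 0.319 FPKM in treated cells (log2 fold change -1.59, SE 0.60, edgeR adjusted p = 0.183). Both were lower in every treated library. *TUBG1*, the main gamma tubulin, measured 144 ± 8.82 and 130 ± 10.1 FPKM and overlapped, with a log2 fold change of -0.02 (SE 0.10). Within the gamma-tubulin ring complex, the template on which microtubules start, 0 of 11 genes had an unadjusted p under 0.05. All genes tested passed it at 11.4% in each direction. The median log2 fold change of the complex was 0.12.

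Genes of the folding machinery lay mostly on the side of the abundant tubulins. Of the 21 genes 18 had positive log2 fold changes, with a median of 0.32. The median was 0.07 over all tested genes between 10 and 50 FPKM and 0.25 over those above 100 FPKM. The list spans both levels, and several of its genes lie between 50 and 100 FPKM, for which no comparison was made. At an edgeR unadjusted p under 0.05, 11 were higher and 1 was lower. The same threshold gave 629 higher and 349 lower of 4427 genes at 10 to 50 FPKM, and 258 higher and 21 lower of 542 above 100 FPKM. In the list 0 genes passed an edgeR adjusted p of 0.05 (smallest 0.103), and DESeq2 called 3 higher. *TBCB*, a cofactor that works on alpha tubulin, measured 71.3 ± 3.63 FPKM in Control and 83.4 ± 2.31 FPKM in treated cells (log2 fold change 0.36, SE 0.09, DESeq2 adjusted p = 0.0188). The chaperonin subunits followed the same direction. *CCT7* measured 159 ± 5.73 and 195 ± 18.4 FPKM (log2 fold change 0.43, SE 0.12, DESeq2 adjusted p = 0.0335), and *TCP1* 83.2 ± 4.57 and 108 ± 17.9 FPKM (log2 fold change 0.52, SE 0.16, DESeq2 adjusted p = 0.0388). *CCT8* and *CCT4* had log2 fold changes of 0.37 and 0.39 without passing DESeq2's threshold. CCT folds actin and other proteins as well as tubulin. On the low side, *TBCE* and *ARL2* had log2 fold changes of -0.19 and -0.20 at unadjusted p-values above 0.05. *TBCEL*, which takes tubulin dimers apart, was the 1 gene lower at an unadjusted p under 0.05, at 3.90 ± 0.366 and 2.58 ± 0.341 FPKM (log2 fold change -0.46, SE 0.15, edgeR adjusted p = 0.146).

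The genes of the autoregulation list had small log2 fold changes. *TTC5* measured 2.85 ± 0.249 FPKM in Control and 2.82 ± 0.221 FPKM in treated cells, with a log2 fold change of 0.11 (SE 0.13; edgeR adjusted p = 0.612). Of the 12 genes, 1 had an unadjusted p under 0.05, the CCR4-NOT deadenylase *CNOT7*, at 6.88 ± 0.230 and 7.54 ± 0.405 FPKM (log2 fold change 0.27, SE 0.10, edgeR adjusted p = 0.172). The median of the list was 0.11. Over all genes tested, 11.4% were higher and 11.4% lower at an unadjusted p under 0.05.

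The enzymes that modify tubulin, at the tails or elsewhere, went both ways. Of 22 tested, 10 had positive and 12 negative log2 fold changes, with a median of -0.04. At an unadjusted p under 0.05, 2 were higher and 2 lower, against 11.4% of all genes in each direction. *TPGS2*, a subunit of the polyglutamylase complex that adds glutamates to the tails, measured 13.3 ± 0.482 FPKM in Control and 16.6 ± 1.78 FPKM in treated cells (log2 fold change 0.44, SE 0.08, edgeR adjusted p = 0.0752, DESeq2 adjusted p = 8.59e-04). *TTLL7*, a polyglutamylase with a preference for beta tubulin, was lower, at 10.4 ± 1.06 and 6.54 ± 2.06 FPKM (log2 fold change -0.56, SE 0.20, edgeR adjusted p = 0.166). The vasohibins remove the terminal tyrosine of alpha tubulin. *VASH1* measured 15.3 ± 1.51 FPKM in Control and 9.82 ± 3.85 FPKM in treated cells and was lower in every treated library, with a log2 fold change of -0.53 (SE 0.25; edgeR adjusted p = 0.258; DESeq2 adjusted p = 0.181). *VASH2* measured 1.47 ± 0.0841 and 0.799 ± 0.168 FPKM (log2 fold change -0.76, SE 0.20, DESeq2 adjusted p = 0.0127). *KIAA0895L*, also known as MATCAP1 and likewise a detyrosinase, measured 9.17 ± 0.280 and 10.1 ± 1.51 FPKM (log2 fold change 0.27, edgeR adjusted p = 0.201). *TTL*, the ligase that restores the tyrosine, measured 7.18 ± 0.350 and 7.02 ± 1.09 FPKM and overlapped between the groups.

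**Figure D4:**
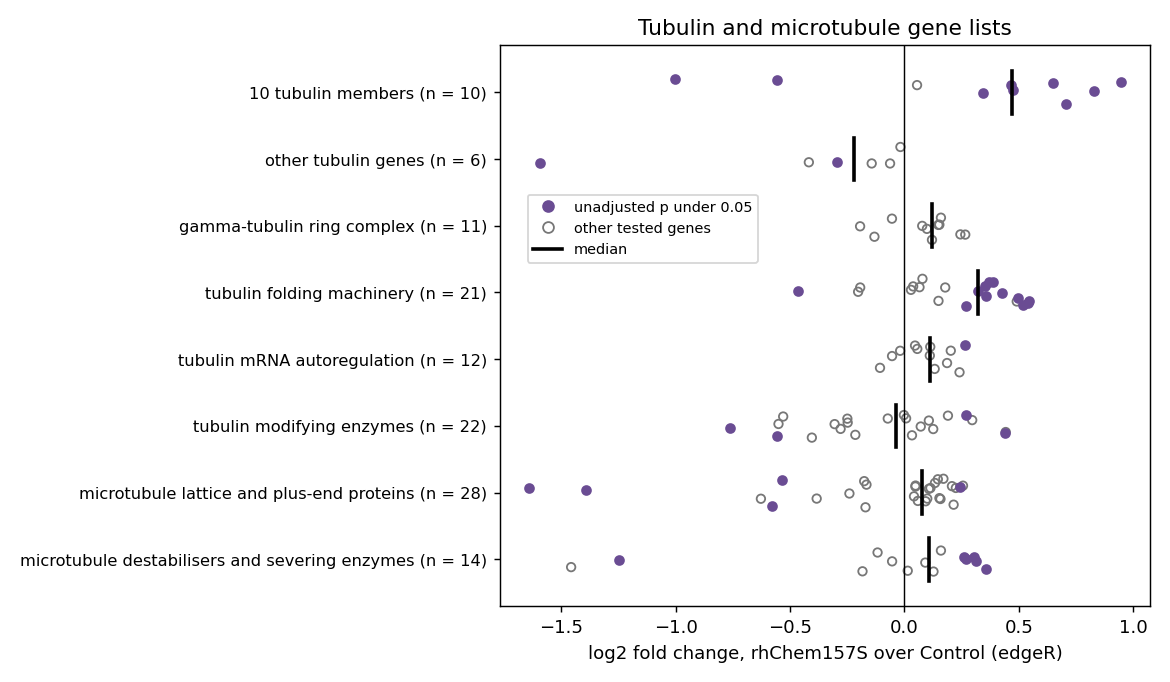
Log2 fold change (horizontal, edgeR) of every tested gene in the 10 tubulin members and the 7 microtubule lists, 1 list to a row with its number of tested genes; filled points have an unadjusted p under 0.05 and the black bar is the list's median, at 0.47 for the members and 0.32 for the folding machinery. Vertical scatter within a row carries no value.

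Proteins that bind along the lattice or at plus ends had a median log2 fold change of 0.08 over 28 genes. At an unadjusted p under 0.05, 1 was higher and 4 were lower, against 11.4% of all genes in each direction. Of the 28, 18 had positive and 10 negative log2 fold changes. The 4 lower genes include *MAPT*, which encodes tau, and *MAP2*, both best known from neurons and with mean levels under 1 FPKM. The more abundant *MAP1A* and *MAP1B* had log2 fold changes of 0.26 and 0.15, and *MAP6* of -0.63, all with overlapping groups. *MAPT* measured 0.745 ± 0.200 FPKM in Control and 0.260 ± 0.0357 FPKM in treated cells (log2 fold change -1.39, SE 0.28, DESeq2 adjusted p = 3.69e-04), and *MAP2* 0.724 ± 0.153 and 0.217 ± 0.193 FPKM (log2 fold change -1.64, SE 0.56, DESeq2 adjusted p = 0.0261). The end-binding protein *MAPRE3* measured 9.76 ± 0.743 and 6.18 ± 0.911 FPKM (log2 fold change -0.54, SE 0.12, DESeq2 adjusted p = 0.00769), and *EML2* 11.3 ± 0.207 and 6.97 ± 2.16 FPKM (log2 fold change -0.58, SE 0.19, edgeR adjusted p = 0.147). *MAP4*, the main lattice-binding protein of non-neuronal cells, was on the other side, at 46.4 ± 3.66 and 50.4 ± 5.44 FPKM (log2 fold change 0.24, SE 0.10, edgeR adjusted p = 0.205).

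Among 14 tested genes for proteins that shorten or cut microtubules, 5 were higher and 1 was lower at an unadjusted p under 0.05. Over all genes tested the share was 11.4% in each direction. The mitotic kinesin *KIF2C*, which depolymerises microtubule ends, measured 50.4 ± 0.241 FPKM in Control and 55.6 ± 5.96 FPKM in treated cells (log2 fold change 0.27, SE 0.08, DESeq2 adjusted p = 0.0466). *KIF18B* and *KIF18A*, kinesins of dividing cells, had log2 fold changes of 0.26 and 0.31, and the severing enzymes *KATNA1* and *SPAST* of 0.31 and 0.36. *KATNAL2* was the lower gene, at 0.721 ± 0.171 and 0.282 ± 0.173 FPKM (log2 fold change -1.25, SE 0.43, DESeq2 adjusted p = 0.0433). Of 14 proliferation genes, 12 had positive log2 fold changes, and the median of the 14 was 0.27. At an edgeR unadjusted p under 0.05, 7 were higher, against 11.4% of all genes, and 0 were lower. DESeq2 called 6 higher at an adjusted p under 0.05, against 3.75% of all genes, and 0 lower. Their part in the tubulin values was not tested.

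The genes whose profile over the 6 libraries was nearest to that of the 10 members' summed counts, by Euclidean distance of centred log2 CPM, were *DTD1*, *RUVBL2*, *HMGB1*, *NIBAN1* and *ASL*. The distances were 0.11 to 0.14 on the log2 scale, and their log2 fold changes were 0.52 to 0.59. RUVBL2 is a chromatin-remodelling and chaperone ATPase, HMGB1 a chromatin protein and ASL an enzyme of the urea cycle.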

How the data were processed

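RNA-seq was measured in 6 libraries of 12Z cells, 3 Control and 3 rhChem157S. Per the study's methods, total RNA was extracted with TRIzol, and paired-end reads were trimmed with fastp, mapped to GRCh38.p13 with HISAT2 and counted per gene with HTSeq; the annotation release and the strand setting are not given in the sources used here. The authors deposited raw read counts and FPKM per gene and library. On 13028 genes it was checked that deposited FPKM is each count over the library total and over 1 length per gene. The members and all gene lists were chosen with earlier results of these data known.

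Counts were tested with edgeR 4.0.16 (quasi-likelihood, TMM, filterByExpr) in R 4.3.3, with Benjamini-Hochberg adjustment over 13311 genes. The alternatives tried were limma 3.58.1 on FPKM after adding 1 or 0.1 and taking log2, DESeq2 1.42.0, other scalings and filters (none, or a mean count of at least 20), a replicate block and each library left out; the newer edgeR pipeline and DESeq2 without each library were added after seeing the data. The fits were tested on simulated data. All 10 members and at most 6 genes per microtubule list, those with the smallest p among genes at an unadjusted p under 0.05, were named. So were TTC5, the 5 genes nearest in profile, and marker genes where absent. TUBG1, TTL, VASH1, TBCE, ARL2, MAP1A, MAP1B, MAP6, CD14, CD68, MUC1, SNAP25, NEFL and the keratins were added after their values were seen. MATCAP1 was matched by its older symbol, KIAA0895L, and stands under both in its list. Shares and isotype ratios were compared by exact permutation (scipy 1.17.1). Sequences came from GENCODE release 29 and RefSeq. The coding ends of the alpha genes are not reported here.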

Additional observations from a re-analysis of the deposited data

How the results depend on the processing

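The number of members with an adjusted p under 0.05 was 0 in edgeR, and 8 with DESeq2. It was 0 to 6 when edgeR left out 1 library at a time (0% to 6.24% of all genes) and 4 to 9 when DESeq2 did (2.03% to 18.3%). Genes of the 7 microtubule lists passing the same threshold numbered 0 in edgeR, 12 with DESeq2 and 0 to 4 in edgeR without single libraries. The lists held 6, 11, 21, 12, 22, 28 and 14 tested genes. Over all genes tested the shares were 0.0301%, 9.05% and 0% to 6.24%. TUBB2A changed sign, to -0.076 with library size only, -0.074 with limma on log2(FPKM + 1), -0.0755 with limma on log2(FPKM + 0.1) and -0.0028 without rhChem157S replicate 3, and lay between -0.0028 and 0.103 when 1 library at a time was left out; the cause was not tested. With library size only, the median over all genes moved to -0.12 and that over the members to 0.34 on the log2 scale. With a replicate block 0 members were called and the log2 fold change of TUBA1B was 0.71. Deviations of same-numbered libraries correlated at 0.24, 0.0015 and 0.25, and those of differently numbered libraries at -0.31 to 0.11. These values do not settle whether the numbers pair the libraries, and the main test did not pair them. As shares of counts rather than FPKM, the TUBA4A share differed by -0.84 points and that of TUBB2A by -0.44 points. Signs of the differences in share turned for TUBA1C, TUBB and TUBB4B, which ranged over the settings from -0.445 to 1.86, -1.23 to 0.923 and -1.0001 to 0.749 points. The log2 fold changes of the other 9 members kept their sign in the 16 settings compared.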
